A study of Homo sapiens with 4 samples.

Results

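The HOX cluster genes encode homeodomain transcription factors that are arranged in the clusters HOXA, HOXB, HOXC and HOXD. Members were the genes whose symbol consists of HOX, a cluster letter and a number, named by probe sets with exactly 1 symbol in the platform annotation, and where a gene had several such probe sets the brightest over the 4 arrays stood for it. This gave 28 genes from 44 probe sets, of 19775 named genes in all. They comprised 10 of 10 HOXB genes, 9 of 9 HOXC genes, 8 of 9 HOXD genes and 1 of 11 HOXA genes in the RefSeq gene table. The other 11 were not analysed here. RNA came from SH-SY5Y, a human neuroblastoma line of neuronal character grown in culture, after transfection with a small interfering RNA (siRNA) against LSD1 (siLSD1, 2 arrays) or with a control siRNA (siControl, 2 arrays). All arrays thus share 1 cell line and the transfection itself, and per the design text the arrays of a group come from independent transfections. A p-value here measures only the spread between such transfections of 1 line, and in bulk RNA fewer cells expressing a gene and less RNA per cell cannot be told apart. No time after transfection is given in the sources used here.

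HOX genes are known for giving cells of the embryo their position along the head-to-tail axis. Low paralog numbers act towards the head and high numbers towards the tail, and the order of the genes on the chromosome follows the order of their domains. Their proteins bind DNA together with cofactors of the PBX, MEIS and PKNOX families. Polycomb complexes keep the clusters silent, MLL complexes keep them active, and retinoic acid induces genes at the head end. LSD1, encoded by KDM1A, removes methyl groups from lysines of histone H3 and works mostly in repressive complexes.

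KDM1A, the gene targeted, had signals of 9.79 and 9.78 in siControl and 8.40 and 8.54 in siLSD1 cells. Levels are log2 signals after quantile normalization, and differences are siLSD1 minus siControl on that scale. The KDM1A difference was -1.32 (95% interval -1.69 to -0.95), the direction that the labels call for. Over all 11865 genes bright enough to test, limma's adjusted p for KDM1A was 0.39, and 0 genes passed an adjusted p of 0.05 (0%). At an unadjusted p under 0.05 limma gave 409 genes (3.45%). The array siControl replicate 1 had the lowest mean correlation with the other arrays, 0.909 against 0.921 for each of the other 3. Of 13 named markers of noradrenergic neuroblastoma, 12 lay above the filter level of 4.12, and the exception was TH, tyrosine hydroxylase. Those with the smallest p had differences of 0.15 (GATA3), -0.20 (DBH), -0.30 (CHGB) and -0.08 (ELAVL4). Of 8 fibroblast markers 6 lay above it, and the brightest were COL3A1 and LUM. The log2 summed signal of all 8 was 9.77 and 9.29 in siControl and 9.75 and 9.96 in siLSD1 cells. Differences of the 6 were positive for 4 and negative for 2, with a median of 0.19. Both siLSD1 arrays lay above both siControl arrays for 2 of them, beside 16.6% of all genes tested. PDGFRB was 1 of these 2 and had the largest difference of the 6, 0.94. FAP and POSTN were below the level. Which cells gave the fibroblast marker signals in this cultured line was not tested, nor was any link to the HOX results. Schwann cell markers had 0 of 4 above the level and blood cell markers 1 of 5 (HBB).

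Of the 28 HOX genes, 13 had a mean above the filter level, which left out the dimmest 40% of genes, and were tested. These were HOXB4 and HOXB5, then HOXC4, HOXC5, HOXC6, HOXC9 and HOXC10, and HOXD1, HOXD4, HOXD8, HOXD9, HOXD10 and HOXD13. All 13 had both group means above the level, so none passed through 1 group alone. The genes above the level were mostly of middle paralog number, from 4 to 10, with HOXD1 and HOXD13 at the ends of their cluster. Many members have such numbers, and of these HOXB6, HOXB7, HOXB8, HOXB9 and HOXC8 lay below the level.

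None of the 13 passed the test. The adjusted p was 0.9996 for each in limma. The mean was higher in siLSD1 cells for 10 of the 13 and lower for 3, where 51.3% of all tested genes were higher and 48.7% lower. Under the deposited scaling the split was 9 to 4, and under median centring 10 to 3, where 78.2% of all genes were higher and 21.8% lower. Both siLSD1 arrays lay above both siControl arrays for 6 members (16.6% of all genes) and below them for 1 (15.1% of all genes), together 7 of 13 beside 31.7% of all genes. The 6 were HOXC5, HOXC9, HOXC10, HOXD1, HOXD8 and HOXD13, and the 1 was HOXD10. The median difference was 0.23 over the 13 and 0.0068 over all genes tested. No test of the group of members was made. Without siControl replicate 1 the counts were 9 higher and 4 lower, where 56.7% of all genes were higher, and 8 members lay wholly above and 2 wholly below the remaining control (41.4% and 27.0% of all genes). Without siControl replicate 2 they were 8 higher and 5 lower, where 43.3% of all genes were higher, and 0 members passed an adjusted p of 0.05 in limma, where 0.700% of all genes did.

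**Figure D1:**
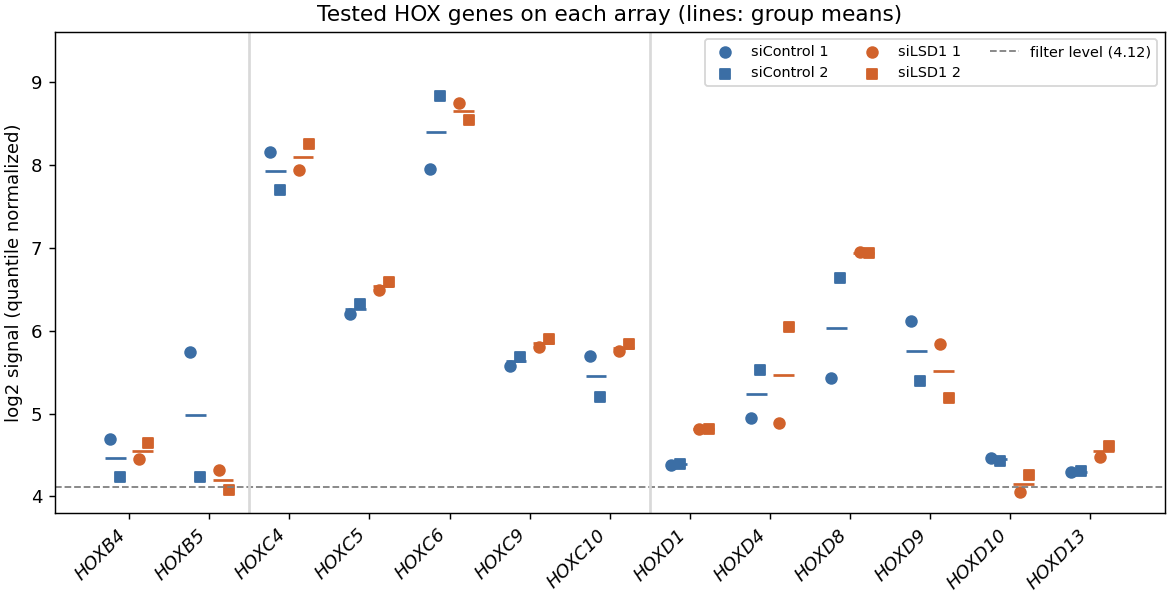
Log2 signal (vertical axis, quantile normalized) of the 13 tested HOX genes on each array, siControl in blue and siLSD1 in orange, with circles for replicate 1, squares for replicate 2, short lines for group means and a dashed line at the filter level. The control arrays lie far apart for HOXB5, HOXC6 and HOXD8, while for HOXC5, HOXC9, HOXD1 and HOXD13 the arrays of each group lie close together and the siLSD1 arrays lie higher.

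For 7 of the 13 tested genes the RefSeq table used holds the sequence before the start of the gene on the build GRCh38.p14. The windows shown are the 250 bases before the start, 5′ to 3′, credited to RefSeq. They are shown because HOXC4 and HOXC5 share 1 window, HOXD8 had the largest difference, and HOXD1 and HOXD10 had groups apart in opposite directions. Capitals mark matches on either strand to the CCAAT box (CCAAT), the TATA box (TATAAA), an E-box (CACGTG) or a paired PBX and HOX site (TGATTNAT). HOXC4 and HOXC5 lie at chr12:54016638-54016887 (plus strand), HOXD1 at chr2:176188418-176188667 (plus), HOXD8 at chr2:176129455-176129704 (plus) and HOXD10 at chr2:176116528-176116777 (plus).
HOXC4 and HOXC5: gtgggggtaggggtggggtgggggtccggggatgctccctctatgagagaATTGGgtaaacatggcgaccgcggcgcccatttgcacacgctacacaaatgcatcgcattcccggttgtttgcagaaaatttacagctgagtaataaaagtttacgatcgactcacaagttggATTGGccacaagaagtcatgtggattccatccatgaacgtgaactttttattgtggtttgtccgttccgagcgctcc
HOXD1: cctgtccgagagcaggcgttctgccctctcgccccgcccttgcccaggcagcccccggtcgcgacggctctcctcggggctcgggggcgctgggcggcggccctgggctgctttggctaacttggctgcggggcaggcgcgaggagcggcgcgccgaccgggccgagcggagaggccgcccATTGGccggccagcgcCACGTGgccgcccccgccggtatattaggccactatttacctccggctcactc
HOXD8: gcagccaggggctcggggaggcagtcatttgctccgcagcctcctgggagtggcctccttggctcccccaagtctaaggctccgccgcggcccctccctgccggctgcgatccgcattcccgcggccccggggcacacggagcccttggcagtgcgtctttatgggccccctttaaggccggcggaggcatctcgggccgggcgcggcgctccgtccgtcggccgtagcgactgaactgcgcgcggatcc
HOXD10: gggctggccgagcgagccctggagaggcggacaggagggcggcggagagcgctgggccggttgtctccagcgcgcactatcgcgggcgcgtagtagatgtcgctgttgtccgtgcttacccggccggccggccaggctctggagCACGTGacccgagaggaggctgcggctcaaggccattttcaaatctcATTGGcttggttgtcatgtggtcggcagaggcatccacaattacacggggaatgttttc

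CCAAT was present in 5 of the 6 distinct windows of tested HOX genes (HOXC4 and HOXC5 counted once) and in 32.0% of 34943 windows of the same length over all genes in the table. HOXD8 was the exception. CACGTG was present in 3 of the 6 (HOXD1, HOXD10 and HOXD13) and in 6.32% of all windows. TATAAA was in 1, that of HOXD13, and in 10.8% of all. TGATTNAT was in 0 of the 6 and in 2.49% of all. The CG dinucleotide occurred 31 times before HOXD1, 28 times before HOXD8, 23 times before HOXD10, 21 times before HOXD13, 14 times before HOXC4 and HOXC5 and 4 times before HOXD4, with a median of 11 over all windows. These are descriptions of sequence, and no binding or histone mark was measured.

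In the HOXC cluster 5 of 5 tested genes had a higher mean in siLSD1 cells under all 3 scalings, where 51.3% of all genes did (78.2% under median centring), and the median difference was 0.26. The count was 4 of 5 without siControl replicate 1 (HOXC6 turned) and 4 of 5 without siControl replicate 2 (HOXC4 turned). None of them passed, and each 95% interval included 0. HOXC5 gave 6.20 and 6.32 in siControl and 6.49 and 6.59 in siLSD1 cells. Its groups did not overlap, with means of 6.26 ± 0.08 and 6.54 ± 0.07 (SD, n = 2). The difference was 0.28, or 1.21-fold, with a 95% interval from -0.31 to 0.87 (adjusted p = 0.9996 in limma).

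HOXC9, which represses the genes of limb-level motor neurons in the thoracic spinal cord, gave 5.58 and 5.69 in siControl and 5.80 and 5.90 in siLSD1 cells. The arrays of a group differed by 0.11 and 0.10, and the groups did not overlap. The difference was 0.22, or 1.16-fold (95% interval -0.44 to 0.88). HOXC10, a gene of lumbar motor neurons, gave 5.70 and 5.20 against 5.75 and 5.84. Its groups were apart only narrowly, since siControl replicate 1 reached almost the level of the siLSD1 arrays. The difference of 0.34 (95% interval -0.39 to 1.07) was 0.59 without siControl replicate 1 and 0.09 without siControl replicate 2.

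HOXC4 and HOXC6 had overlapping groups. HOXC4, which shares its RefSeq start with HOXC5, gave 8.16 and 7.70 in siControl and 7.93 and 8.26 in siLSD1 cells. The lowest value was that of siControl replicate 2, and the difference of 0.16 turned to -0.067 without that array. HOXC6, a gene of brachial motor neurons, gave 7.95 and 8.83 against 8.75 and 8.55. Here siControl replicate 1 was the lowest, and the difference of 0.26 turned to -0.19 without it and was 0.70 without siControl replicate 2. The control arrays thus deviated in opposite directions in these neighbouring genes. Transcripts of HOXC4, HOXC5 and HOXC6 overlap on the chromosome, and how far their probe sets tell them apart was not tested.

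**Figure D2:**
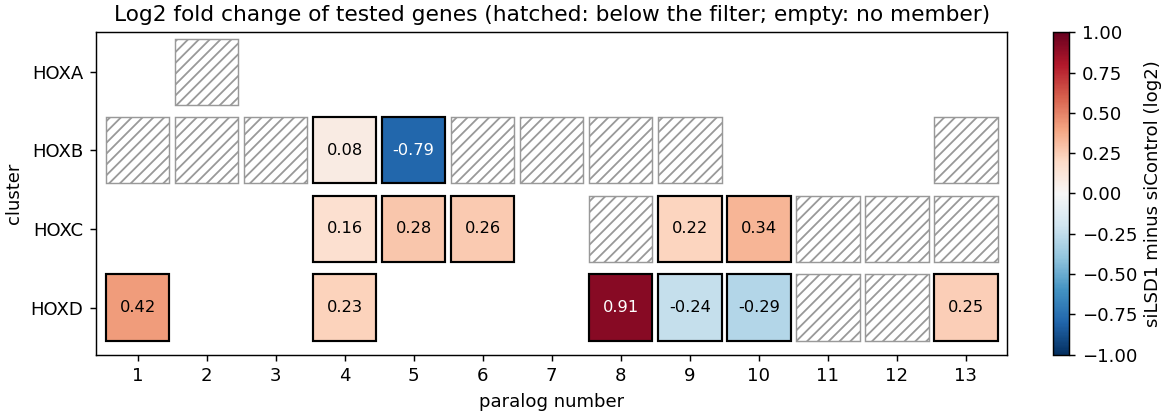
The 28 HOX genes by cluster (rows) and paralog number (columns), coloured by the log2 difference siLSD1 minus siControl for the 13 tested genes, with hatching for the 15 below the filter and blanks where there was no member. All 5 tested HOXC genes have positive differences from 0.16 to 0.34, whereas HOXD holds both the highest value (0.91) and negative values at paralogs 9 and 10.

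In the HOXD cluster 4 of 6 tested genes had a higher and 2 a lower mean, with a median of 0.24. HOXD8 was the only HOX gene with an unadjusted p under 0.05 in limma (0.0476), 1 of 13 beside 2.29% of all genes in that direction, and 0 of 13 did so lower, beside 1.15% of all genes. That p was 0.059 under the deposited scaling, 0.0505 under median centring and 0.0617 with no filter. With no filter HOXB2 (0.0128) was the only 1 of 28 HOX genes under 0.05 in limma. In that fit 367 of the 11865 genes above the filter level were under 0.05. HOXB2 lay below that level, so this share is no background for it. The count over all 19775 genes of that fit was not taken. HOXD8 gave 5.42 and 6.64 in siControl and 6.94 and 6.94 in siLSD1 cells. The siLSD1 values were nearly equal, while siControl replicate 1 was far below the other 3 arrays. Means of 6.03 ± 0.86 and 6.94 ± 0.0039 (SD, n = 2) gave a 1.88-fold difference of 0.91 on the log2 scale with a 95% interval from 0.01 to 1.81. Without siControl replicate 1 the difference was 0.30, and without siControl replicate 2 it was 1.52 (adjusted p = 0.074 in limma). The adjusted p over its alternatives ran from that value to 0.99994.

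HOXD1, at the head end of the cluster, gave 4.38 and 4.40 in siControl and 4.81 and 4.82 in siLSD1 cells. In each group the arrays lay closer together than for any other tested HOX gene, and the groups did not overlap. The difference was 0.42, or 1.34-fold, and ran from 0.42 to 0.43 when each array was left out. Its 95% interval, for which limma draws the spread towards that of genes of like level, was -0.42 to 1.26. HOXD13, at the tail end and known for shaping digits, gave 4.29 and 4.31 against 4.48 and 4.61, a difference of 0.25 (95% interval -0.63 to 1.13) with groups that did not overlap. Its other probe sets, both below the filter, had differences of -0.74 and -1.25. The former gave 3.56 and 3.27 in siControl and 2.78 and 2.56 in siLSD1 cells, so its groups were apart in the opposite direction. The latter had overlapping groups.

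HOXD9 and HOXD10, the latter known for its role in lumbar motor neurons, stand side by side in the cluster and had lower means in siLSD1 cells. HOXD10 gave 4.47 and 4.42 in siControl and 4.05 and 4.26 in siLSD1 cells, and its groups did not overlap. The difference was -0.29 (95% interval -1.20 to 0.62), and it lay between -0.40 and -0.19 when each array was left out. The value of siLSD1 replicate 1 was below the filter level, and the siLSD1 mean of 4.15 was just above it. Other probe sets of HOXD10, both below the filter, had differences of 1.53 and -0.96 with overlapping groups. HOXD9 gave 6.11 and 5.39 against 5.84 and 5.19. Replicate 1 of each group was the higher and the groups overlapped, so that the difference of -0.24 turned to 0.12 without siControl replicate 1 and to 0.08 without siLSD1 replicate 2. HOXD4, a hindbrain gene, gave 4.94 and 5.52 against 4.88 and 6.04. The siLSD1 arrays enclosed both siControl arrays, and the difference of 0.23 was -0.35 without siLSD1 replicate 2, -0.06 without siControl replicate 1, 0.52 without siControl replicate 2 and 0.81 without siLSD1 replicate 1.

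A further 3 probe sets named HOXD3 and HOXD4 together with another locus and were left out of the members. The brightest gave 6.75 and 6.71 in siControl and 6.99 and 6.40 in siLSD1 cells, a difference of -0.04. Another, above the filter as well, gave 4.75 and 4.76 against 4.25 and 3.88, a difference of -0.69, and the dimmest lay below the filter. They cannot be assigned to 1 of these genes.

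In the HOXB cluster 2 of 10 genes lay above the filter, and the groups of both overlapped. In HOXA the only member, HOXA2, lay below it. HOXB5 gave 5.75 and 4.23 in siControl and 4.31 and 4.08 in siLSD1 cells. Only siControl replicate 1 was high, and the difference of -0.79 (95% interval -2.0 to 0.42) was -0.04 without it and -1.55 without siControl replicate 2. The other probe set of HOXB5 above the filter gave a difference of 0.13, the opposite direction. HOXB4, known for the growth of blood stem cells, gave 4.69 and 4.24 against 4.45 and 4.65, with a difference of 0.08 that turned to -0.14 without siControl replicate 2, to -0.012 without siLSD1 replicate 2 and to -0.025 under the deposited scaling.

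**Figure D3:**
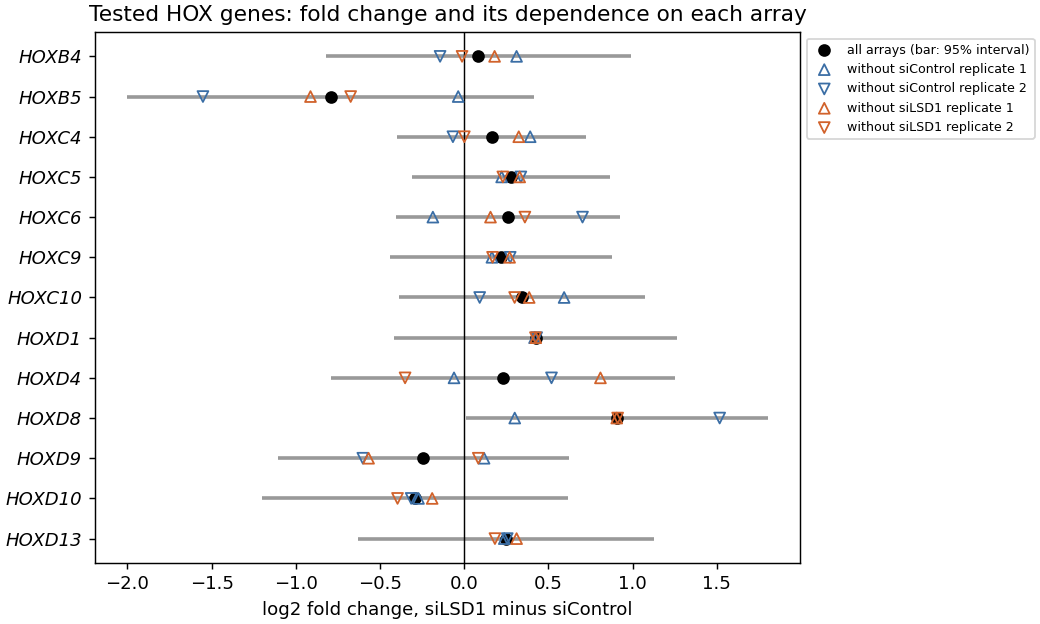
Log2 difference siLSD1 minus siControl (horizontal axis) of the 13 tested HOX genes with all arrays (black points, with grey bars for limma's 95% interval) and with each array left out (open triangles, blue for a siControl and orange for a siLSD1 array). The interval includes 0 for every gene except HOXD8, where it starts at 0.01, and for HOXB5, HOXC6 and HOXD8 the triangles for the siControl arrays lie farthest apart.

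The members spread over much of the distribution of all genes. HOXD8 lay at the 98.6th percentile of the differences of all tested genes, HOXD1 at the 90.5th and HOXC10 at the 86.9th. HOXB5 lay at the 1.09th, HOXD10 at the 11.0th and HOXD9 at the 14.5th. The middle 50% of all genes had differences from -0.15 to 0.19, and 8 of the 13 members lay above that range and 3 below it. Leaving out an array in turn changed the sign of 5 members (HOXB4, HOXC4, HOXC6, HOXD4 and HOXD9) and left that of 8 as it was.

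**Figure D4:**
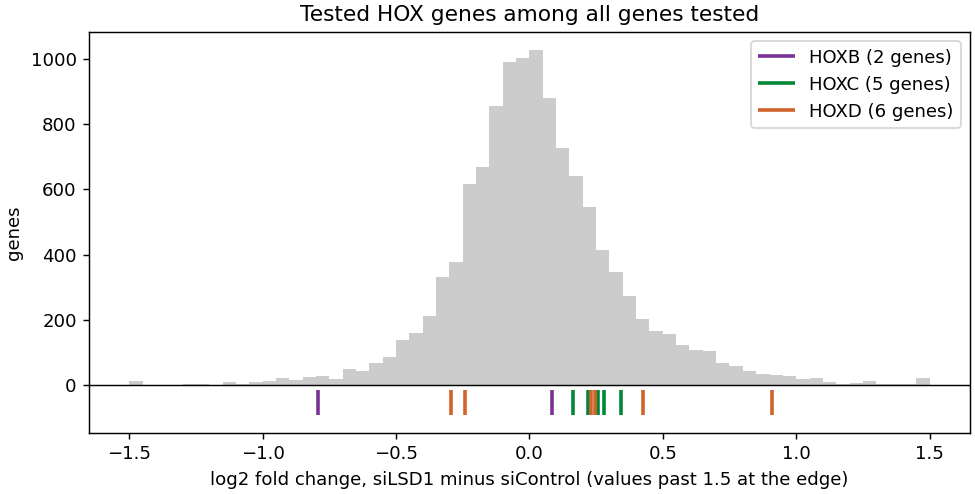
Histogram of the log2 difference siLSD1 minus siControl for all 11865 tested genes (vertical axis, number of genes), with a coloured line under it for each of the 13 tested HOX genes by cluster and values past 1.5 drawn at the edge. The HOXC genes lie together from 0.16 to 0.34, while HOXB and HOXD genes lie on both sides of 0.

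The 15 members below the filter were HOXA2, HOXB1, HOXB2, HOXB3, HOXB6, HOXB7, HOXB8, HOXB9 and HOXB13, HOXC8, HOXC11, HOXC12 and HOXC13, and HOXD11 and HOXD12. Their values ran from -1.57 to 4.42, and 4 of them exceeded the filter level on at least 1 array. Such signals varied widely between arrays of a group. The mean of the differences between arrays of a group had a median of 0.89 over these 15, beside 0.32 over the 13 tested members, 1.0 over all genes below the filter and 0.27 over all genes above it. Whether these genes were transcribed at all cannot be read from such values. Of the 15, 9 had a higher and 6 a lower mean, and 5 (HOXA2, HOXB2, HOXB7, HOXB13 and HOXD12) differed at least 2-fold, where 32.9% of all genes below the filter did. Groups did not overlap for 5 of the 15 (HOXB2, HOXB7, HOXB9, HOXA2 and HOXD12), beside 34.0% of all genes below the filter. Over all 28 members 19 had a higher mean (50.7% of all genes with no filter), 9 lay wholly higher (17.0%), 3 wholly lower (15.7%) and 5 differed at least 2-fold (14.0%). At least 2-fold differences were found in 0 of the 13 tested members and in 1.37% of all genes tested.

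The largest differences below the filter were in HOXB7, HOXB2 and HOXD12. HOXB7 gave 3.60 and -1.41 in siControl and 3.86 and 3.60 in siLSD1 cells, so that siControl replicate 2 alone stood apart, and the difference was 2.63. Its other 2 probe sets had differences of -1.12 and -1.59. HOXB2, a hindbrain gene that retinoic acid induces, gave 1.63 and 1.46 against 3.96 and 3.53, a difference of 2.20 with arrays of each group close together, and all 4 values lay below the filter level. It had no other probe set. HOXD12 gave 0.57 and -0.87 against -1.57 and -1.35, a difference of -1.31.

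**Figure D5:**
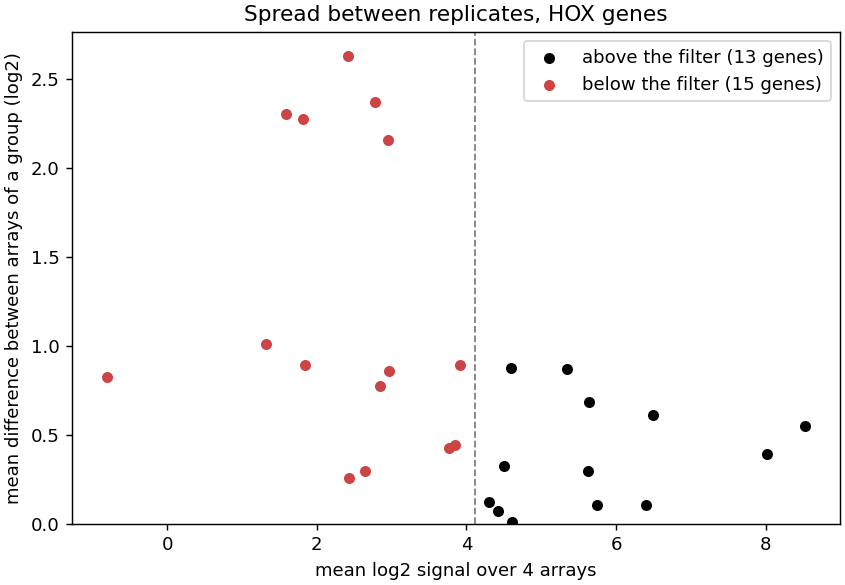
Mean difference between the arrays of a group (vertical axis, log2) against the mean log2 signal over the 4 arrays (horizontal axis) for the 28 HOX genes, with the filter level as a dashed line. Genes below the filter reach differences of 2.63 between arrays of a group, and the highest above it is 0.88.

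Other probe sets were present for 6 of the 13 tested members. Of these 8 probe sets, 1 lay above the filter, 3 had the direction of the member's brightest probe set and 5 the opposite one. HOXD1 and HOXD4 were among those with the same direction (0.77 and 0.997 by the dimmer probe set), and HOXD9 (0.89 by its dimmer one) was among those with the opposite.

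Genes that work with the HOX proteins or set their expression gave no call either. Of the PBX, MEIS and PKNOX cofactors, 5 of 7 tested genes had a higher and 2 a lower mean, with a median of 0.09. MEIS3 had a difference of 0.38, MEIS1 of 0.25, MEIS2 of 0.09 and PKNOX1 of 0.22, all at an adjusted p of 0.9996 in limma. Of the Polycomb genes, which encode the complexes that silence HOX clusters, 13 of 24 had the higher and 11 the lower mean, and the median was 0.02. PCGF3 (0.61), EED (0.76), PCGF5 (0.59) and PHF1 (0.45) had the smallest p. For EED, a core subunit of the complex that methylates histone H3, siControl replicate 1 gave 7.87 and the other arrays from 8.99 to 9.26, a pattern like that of HOXD8.

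Among MLL and trithorax factors, 12 of 24 tested genes had a higher and 12 a lower mean, with a median of 0.0043. KMT2A, the MLL methyltransferase that keeps HOX genes active, gave 8.30 and 8.48 in siControl and 8.86 and 8.84 in siLSD1 cells. Its groups did not overlap, and the difference was 0.46 (95% interval 0.03 to 0.88, adjusted p = 0.9996 in limma). KMT2C had a difference of 0.75, AFF4 of 0.37 and MLLT3 of 0.95, the last with siControl replicate 1 at 4.99 and the other arrays from 6.40 to 6.69. In the retinoid, CDX and GDF11 list the split was 4 to 4 over 8 tested genes and the median -0.04. The retinoid receptor RXRB had a difference of 0.63, the signal GDF11 of 0.69, the receptor RARA of -0.33 and RXRA of 0.28. CDX1, CDX2 and CDX4, activators of HOX genes in the trunk, were below the filter.

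Genes that flank the HOX clusters had a median of -0.10, with 3 of 10 higher and 7 lower. CBX5 and CALCOCO1 on the HOXC side had differences of 0.68 and -0.29, and LNPK and MTX2, on either side of HOXD, of -0.46 and -0.25. LNPK gave 8.17 and 8.02 in siControl and 7.58 and 7.70 in siLSD1 cells, with groups that did not overlap (adjusted p = 0.9996 in limma). Of the 6 tested HOXD genes, HOXD9 and HOXD10 had negative differences like LNPK and 4 had positive ones. Of the non-coding RNAs of the clusters, 3 of 11 were above the filter. HOXD-AS2, transcribed next to HOXD8, had a difference of -0.46, HOTTIP of -0.39 and HAGLR of 0.02, all with overlapping groups. HOTAIR, the non-coding RNA of the HOXC cluster, was below the filter.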

How the data were processed

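The values were deposited as 1 log2 signal per probe set and array. That the authors' deposited values are log2 was found from the values: base-2 antilogs had a trimmed mean of 100.0 on each array, with 2% of probe sets left out at each end. Per the labels, biotin-labelled total RNA was hybridised to Affymetrix arrays; how probes were summarised is not given in these sources. Symbols came from GEO's platform annotation, and 41037 probe sets matched RefSeq by Entrez ID. Arrays were quantile normalized, since their medians ran from 4.01 to 4.27. Of 54675 probe sets, 41091 carried 1 symbol. Genes under the 40th percentile of the mean were left out. Groups, taken from the sample titles, were compared with limma 3.58.1 in R 4.3.3 (lmFit, eBayes with trend, two-sided, Benjamini-Hochberg over all genes tested). With 2 arrays a group, the smallest exact permutation p is 0.333. Few arrays limit the precision, and limma's 95% intervals had a median margin of 0.58 (log2) to each side. The fit was tested on simulated data.

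Every HOX gene was named; so were the 4 tested genes of each other list with the smallest p, the brightest markers of other cell types and, below the filter, the 3 largest differences. TH, PDGFRB, FAP and POSTN were named after their values were seen. The members and lists were chosen with earlier results of these data known. The array values of EED, MLLT3, LNPK and KMT2A are given because of how they looked. Alternatives covered scaling, filter, probe set choice, variance trend, replicate block and each array left out.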

Additional observations from a re-analysis of the deposited data

How the results depend on the processing

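No HOX gene passed an adjusted p of 0.05 in limma under any of the 12 alternatives, where 1 of 13 had an unadjusted p under 0.05 with all arrays. Over all genes the count of calls was 0 in most, 13 with the replicate number as a block (0 HOX genes) and 0 to 83 when each array was left out. In the regulator, cofactor and flanking lists 0 to 3 genes were called when each array was left out, the 3 (WDR5, AFF1 and EED) without siControl replicate 2. KDM1A passed with the replicate block (adjusted p = 0.0194) and without siControl replicate 2 (0.0474). No label says that a number marks a shared batch, and the deviations of same-numbered arrays had a correlation of 0.05 over genes, so the block was kept as an alternative. It changed no other named call.

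The median over tested HOX genes (0.23) ran from 0.17 to 0.31 when each array was left out, that of HOXB (-0.35, 2 genes) from -0.85 to 0.14, that of HOXC (0.26) from 0.22 to 0.32 and that of HOXD (0.24) from 0.13 to 0.37. Median centring moved the median of all genes to 0.18, with 78.2% of genes higher in place of 51.3%, and the medians of all tested HOX genes to 0.36 and of HOXC to 0.48. HOXB was -0.44 under the deposited scaling and -0.26 under median centring. Its median was positive with no filter (0.068, 10 genes) and with the mean of all probe sets (0.084, 3 genes). The same held when probe sets without an _x_at or _s_at ending were preferred (0.054, 3 genes). HOXD was 0.14 under the deposited scaling and 0.61 with the mean of all probe sets, where 3 of its genes were tested. HOXD9 turned to 0.32 with that mean, and HOXB4 to -0.025 under the deposited scaling. When each array was left out, HOXB4 ran from -0.14 to 0.31, HOXC4 from -0.067 to 0.39, HOXC6 from -0.19 to 0.70, HOXD4 from -0.35 to 0.81 and HOXD9 from -0.60 to 0.12. The causes were not tested. A filter at the 60th percentile left 2 HOX genes to test. The unadjusted 95% intervals of the tested HOX genes reached 1.48-fold to 2.31-fold to each side. A member that did not pass is thus not shown to be unchanged. KDM1A at 2.50-fold did not pass the adjusted threshold in the main fit, though it did with the replicate block. Apart from the check of the fit on simulated data, which sizes of difference can be detected with 2 arrays a group was not tested. Counts without an array were chosen after seeing the data.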
